A study of Homo sapiens with 18 samples.

Results

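The effect of depleting FLI1 was compared between TC-32 and A673, established Ewing sarcoma lines, from a fusion-driven cancer that arises mostly in bone in children and young adults. The contrast was the siFLI1 effect in TC-32 minus the siFLI1 effect in A673, taken from 12 of the 18 libraries of the series. The 4 groups were TC-32 siNeg, TC-32 siFLI1, A673 siNeg and A673 siFLI1, with 3 libraries each. Cells were transfected at plating with 20 nM of a negative control siRNA (siNeg) or of an siRNA against FLI1 (siFLI1), complexed with the same lipid reagent, and 1 siRNA against FLI1 is named. TC-32 was grown in RPMI 1640 and A673 in DMEM, each with serum. The names of the TC-32 columns carry 48 h and those of A673 carry no time, so line, medium, table and any difference in time cannot be told apart. The labels do not say whether replicates were separate cultures, so the p-values measure the spread between these libraries, which may be technical. Another line, TC-71, with 3 siNeg and 3 siFLI1 libraries, was used only for genes chosen in the other two.

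Both lines carry a fusion of EWSR1 to FLI1, an ETS family gene. The fusion protein binds ETS sites and GGAA repeats, turns on a set of tumour genes and represses genes of mesenchymal differentiation, and its loss is known to slow proliferation. The siRNA against FLI1 reaches the fusion transcript as well as any unfused FLI1. As general knowledge rather than from the labels, A673 lacks functional p53 and carries an activating BRAF mutation. Each line is a single established culture, so a difference between them is a difference between 2 cultures and not between classes of tumour.

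FLI1 transcript fell in both lines, and further in A673. The FLI1 level was 45.1, 47.5 and 42.6 CPM in TC-32 siNeg and 21.4, 21.5 and 22.1 CPM in TC-32 siFLI1, against 76.7, 77.3 and 76 CPM in A673 siNeg and 18.7, 18.2 and 18 CPM in A673 siFLI1. No siFLI1 library overlapped a siNeg library in either line. FLI1 was left at 48.07% of siNeg in TC-32 and at 23.87% in A673, and the log2 fold changes of -1.06 (SE 0.0542) in TC-32 and -2.07 (SE 0.0468) in A673 differed by 1.01 (SE 0.0711, adjusted p = 3.12e-12) in edgeR's quasi-likelihood test, the test behind every adjusted p here. EWSR1, the other fusion partner, had log2 fold changes of -0.42 (SE 0.0382) in TC-32 and -0.35 (SE 0.037) in A673, and the difference did not pass the threshold (adjusted p = 0.283). ETS1, the ETS family gene the study concerns, rose with log2 fold changes of 2.24 (SE 0.0661) in TC-32 and 5.27 (SE 0.0626) in A673, a difference of -3.03 (SE 0.094, adjusted p = 2.53e-19).

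Libraries held 24102487 to 33669271 counts in TC-32 and 114564479 to 120993595 in A673. Replicates correlated at 0.996 or more across genes, and every pair differed by more than counting noise. Levels are given as CPM, counts relative to library size after TMM scaling, and levels set side by side across lines come from tables that were quantified separately. Of 12 Ewing sarcoma markers, 11 exceeded 1 CPM in some library, and FATE1 was near 0 in all groups. Of 10 blood markers, 3 exceeded 1 CPM in some library: LCP1 had group means from 28.1 to 54.8 CPM, CD68 from 1.87 to 11.8 CPM and CORO1A from 1.74 to 3.22 CPM. CD3E, TYROBP and HBB were at 0. Of 8 epithelial markers, 5 exceeded 1 CPM in some library, led by KRT18, with group means from 92.5 to 359 CPM. CLDN4 went from 0.448 to 3.86 CPM in TC-32 and from 0.19 to 20.2 CPM in A673. Of 8 skeletal muscle markers, 2 exceeded 1 CPM in some library. The summed level of 11 fibroblast or mesenchymal markers, scaled to library totals, rose with siFLI1 from 960 to 984 CPM up to 13185 to 14204 CPM in TC-32 and from 1408 to 1468 CPM up to 7457 to 8545 CPM in A673, led by collagen genes that also stand in the lists below, and its part in those results was not tested. Every member of this list rose in TC-32, but not in A673. There the mean levels in siNeg and siFLI1 were 63.3 and 37.0 CPM for THY1, 101 and 90.6 CPM for FBLN1 and 0.967 and 0.966 CPM for DCN. The other members, COL1A1, COL1A2, COL3A1, LUM, PDGFRA, PDGFRB, FAP and POSTN, rose in A673. Fewer cells and less RNA per cell cannot be told apart in bulk RNA.

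Most genes had a siFLI1 effect that was called different between the 2 lines, but fewer differed by a large amount. When edgeR's glmTreat required more than a 1.5-fold difference, 6495 genes were called. Of 19755 genes tested, 62.5% had a siFLI1 effect that differed between the lines at a Benjamini-Hochberg adjusted p under 0.05, and 27.9% differed at least 2-fold. The effect was higher in TC-32 for 5476 genes (27.7%) and lower for 6866 (34.8%). Scaling to library size alone moved the share of differing genes that were higher in TC-32 from 44.4% to 55.8%, so the direction of small differences depends on the scaling. Within TC-32, 38.2% of genes were higher and 35.6% lower in siFLI1, and within A673 34.6% were higher and 30.9% lower. Genes called in both lines with opposite signs and a called difference made up 12.6%, or 2483 genes, of which 1093 rose in TC-32 and 1390 rose in A673. The more common form of difference was one of size: 5183 genes changed in the same direction by different amounts. Among these, 1658 rose more in TC-32 and 919 rose more in A673, while 2213 fell more in TC-32 and 393 fell more in A673. A further 2745 genes changed in the same direction with no called difference.

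**Figure D1:**
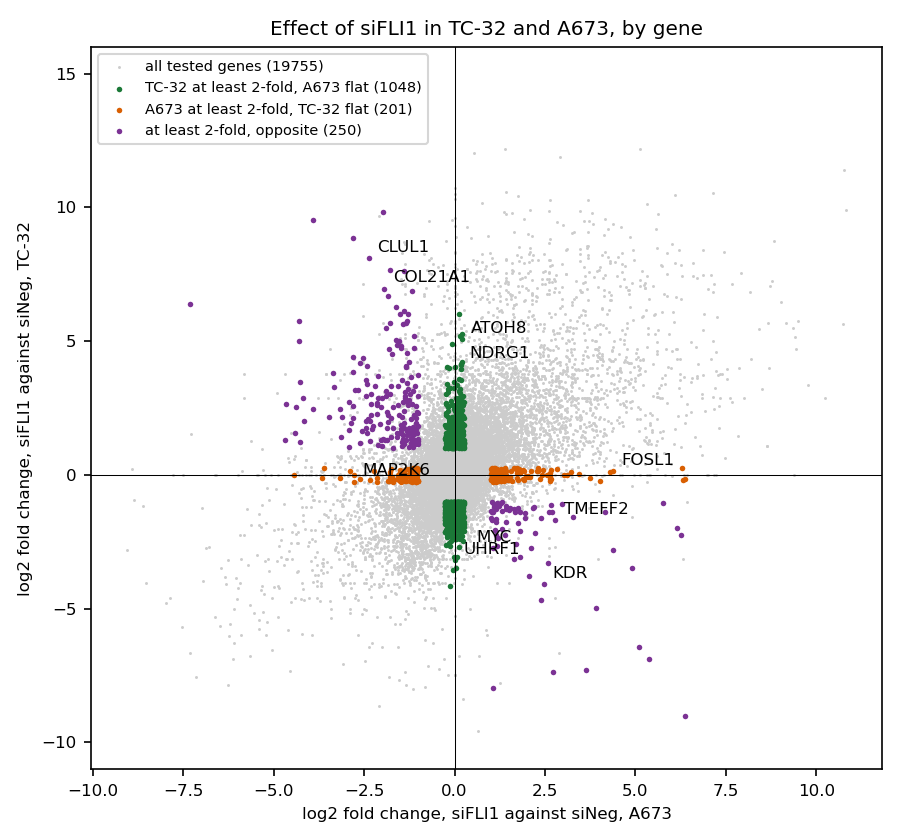
Log2 fold change of siFLI1 against siNeg for the 19755 genes tested, with A673 on the horizontal axis and TC-32 on the vertical axis, 1 point per gene and colours for the 3 classes defined in the text. Points in the upper left and lower right changed in opposite directions, and the green and orange bands hold the genes that moved at least 2-fold in 1 line and under 1.2-fold in the other.

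Genes that moved at least 2-fold in opposite directions numbered 250, of which 180 rose in TC-32 and fell in A673 and 70 did the reverse. Many of these were weakly expressed, and 112 reached 1 CPM in both lines, 74 of them higher in TC-32. Among the genes that fell in TC-32 and rose in A673, KDR had the largest change in the less affected line of those that reached 5 CPM in both (VEGF receptor 2, the main signalling receptor for VEGFA; ENSG00000128052.9, chromosome 4, 55078481 to 55125595). Its level was 30.1, 31.5 and 30.4 CPM in TC-32 siNeg and 1.88, 1.71 and 1.88 CPM in TC-32 siFLI1. In A673 the same gene stood at 5.47, 5.34 and 4.54 CPM in siNeg and 30.6, 28.3 and 26.9 CPM in siFLI1. The order of the groups reversed. The siRNA groups did not overlap in either line, which was a condition for naming a gene of this class. The effects of -4.07 (SE 0.104) in TC-32 and 2.48 (SE 0.0689) in A673 differed by -6.56 (SE 0.124, adjusted p = 2.82e-23). The summed level of 7 endothelial markers, of which KDR is one and the main part, fell from 33.0 to 34.1 CPM down to 5.35 to 6.91 CPM in TC-32 and rose from 5.85 to 6.67 CPM up to 28.5 to 31.99 CPM in A673, and its part in the result was not tested. The other endothelial markers did not move with KDR in TC-32 as a group: mean levels in siNeg and siFLI1 were 0.276 and 1.41 CPM for CDH5, 0.618 and 2.11 CPM for TEK and 2.07 and 0.441 CPM for PECAM1. In A673 they were 0.391 and 1.52 CPM for CDH5, 0.0458 and 0.663 CPM for TEK and 0.50 and 0.216 CPM for PECAM1, and VWF, CLDN5 and ROBO4 stayed under 1 CPM in every library of both lines. FLT1, the related VEGF receptor 1, instead rose in both, by 5.45 (SE 0.151) and 2.28 (SE 0.0666) on the log2 scale.

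TMEFF2, a transmembrane protein with follistatin-like domains (ENSG00000144339.11, chromosome 2, 191949043 to 192194933), also fell in TC-32 and rose in A673. It measured 18.9, 18.4 and 17.3 CPM in TC-32 siNeg and 5.96, 5.28 and 5.71 CPM in TC-32 siFLI1. The A673 libraries read 6.21, 6.31 and 6.69 CPM in A673 siNeg and 45.7, 43.4 and 43.1 CPM in A673 siFLI1. The difference between its effects was -4.48 (SE 0.097, adjusted p = 3.38e-22). GNG4, a G protein gamma subunit (ENSG00000168243.10, chromosome 1, 235547685 to 235650754), had 7.25, 6.38 and 6.46 CPM in TC-32 siNeg and 0.754, 0.87 and 0.76 CPM in TC-32 siFLI1. Corresponding A673 values were 6.26, 6.08 and 5.997 CPM in A673 siNeg and 21.2, 20.8 and 21.8 CPM in A673 siFLI1. The siNeg levels of GNG4 were close in the 2 lines and the siFLI1 levels lay on either side of them, a difference of -4.86 (SE 0.145, adjusted p = 1.07e-19).

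MMP15, a membrane-type matrix metalloproteinase (ENSG00000102996.4, chromosome 16, 58025754 to 58046901), gave 31.7, 32.4 and 37.8 CPM in TC-32 siNeg and 12.7, 14.2 and 12 CPM in TC-32 siFLI1. For A673 it gave 16.7, 15.7 and 16.7 CPM in siNeg and 53.8, 60.7 and 56.9 CPM in siFLI1, and the difference was -3.18 (SE 0.0995, adjusted p = 2.83e-19). MEGF10, a receptor for engulfment of apoptotic cells (ENSG00000145794.16, chromosome 5, 127290796 to 127465737), gave 6.2, 5.82 and 6.29 CPM in TC-32 siNeg and 1.43, 0.899 and 0.793 CPM in TC-32 siFLI1. In A673 it was at 1.78, 1.69 and 1.71 CPM in siNeg and 6.1, 5.68 and 5.14 CPM in siFLI1, with a difference of -4.28 (SE 0.195, adjusted p = 5.18e-16). For both genes TC-32 stood above A673 in siNeg and below it in siFLI1.

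Among the genes that rose in TC-32 and fell in A673, the ends of the range were again reversed. COL21A1, a fibril-associated collagen chain (ENSG00000124749.16, chromosome 6, 56056590 to 56394094), was nearly silent in TC-32 siNeg, at 0.208, 0.263 and 0.713 CPM, and reached 50.7, 45.7 and 50.6 CPM in siFLI1. In A673 it started at 138, 143 and 146 CPM and fell to 36.7, 38.4 and 36.3 CPM. The siFLI1 levels of the lines thus lay closer together than the siNeg levels, and the effects of 6.97 (SE 0.138) in TC-32 and -1.94 (SE 0.0558) in A673 differed by 8.91 (SE 0.145, adjusted p = 1.59e-24). ARHGAP20, a GTPase-activating protein (ENSG00000137727.12, chromosome 11, 110577042 to 110713189), measured 17.1, 17 and 17.8 CPM in TC-32 siNeg and 66.2, 61.5 and 64.8 CPM in TC-32 siFLI1. The A673 libraries showed 26.9, 26.6 and 25.3 CPM in A673 siNeg and 6.22, 6.14 and 6.33 CPM in A673 siFLI1, which made a difference of 3.96 (SE 0.0789, adjusted p = 7.6e-23) from effects of similar size and opposite sign.

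FRK, a SRC-related tyrosine kinase (ENSG00000111816.7, chromosome 6, 115931149 to 116060891), had 1.71, 1.54 and 1.3 CPM in TC-32 siNeg and 7.2, 6.73 and 5.55 CPM in TC-32 siFLI1. A673 showed 18.3, 20.05 and 19.95 CPM in A673 siNeg and 4.32, 3.5 and 3.33 CPM in A673 siFLI1, and the difference was 4.48 (SE 0.177, adjusted p = 2.95e-17). AKR1C2, an aldo-keto reductase of steroid metabolism (ENSG00000151632.17, chromosome 10, 4987775 to 5018031), had 3.87, 4.24 and 2.81 CPM in TC-32 siNeg and 18.8, 18.3 and 16.5 CPM in TC-32 siFLI1. In A673 it had 41.4, 42.4 and 43 CPM in siNeg and 9.8, 9.09 and 9.71 CPM in siFLI1, a difference of 4.43 (SE 0.119, adjusted p = 1.68e-20), though it shares long near-identical stretches with other AKR1C genes and its reads may be split among them. CLUL1, a clusterin-like gene (ENSG00000079101.16, chromosome 18, 596988 to 650334), held 0, 1 and 1 counts in TC-32 siNeg and 214, 267 and 241 in siFLI1, a ratio of 295 with a 95% counting interval from 81.3 to 2438. In A673 it fell from 8.89, 9.01 and 9.13 to 1.75, 1.69 and 1.76 CPM. Of its exonic sequence, 11.7% lies under an antisense gene, and since it is not stated whether counting used strand, such genes are uncertain here.

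**Figure D2:**
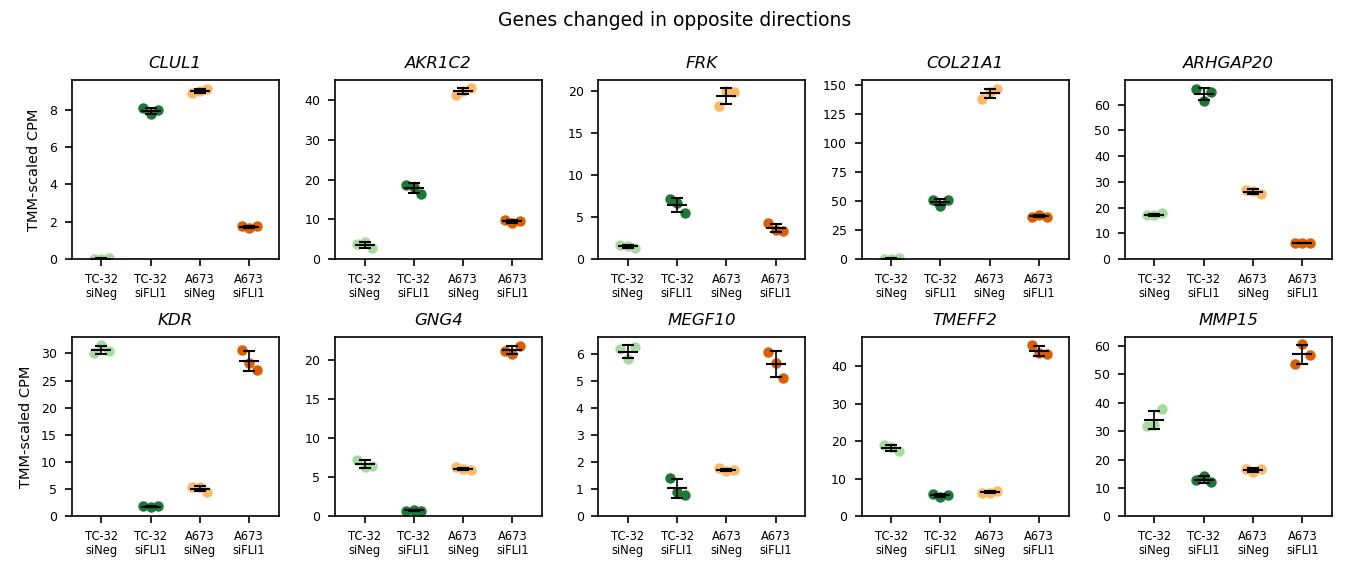
TMM-scaled CPM of the 5 named genes that rose in TC-32 and fell in A673 (upper row) and the 5 that did the reverse (lower row), with 1 point per library and the mean with SD over 3 libraries in black. In every panel the siFLI1 libraries lie above siNeg in 1 line and below it in the other, with no overlap, as the choice of these genes required.

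TC-71 took no part in the contrast. Of the 250 opposite genes, 167 were tested in TC-71, where 58 were called in the TC-32 direction and 58 in the A673 direction, so it sided with neither line. For comparison, 36.8% of the 17085 genes tested in TC-71 were higher and 35% lower. TC-71 had TMEFF2 at -1.04 and FRK at -1.24 on the log2 scale, the former in the TC-32 direction and the latter in the A673 direction. COL21A1 was at 0.78 there, AKR1C2 at 3.77 and ARHGAP20 at -0.92, and KDR and MEGF10 were too low to be tested. The AKR1C2 value rests on mean levels of 0.064 CPM in TC-71 siNeg and 0.96 CPM in TC-71 siFLI1, so its size is uncertain.

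A second class held genes that moved at least 2-fold in TC-32 while their A673 effect was under 1.2-fold and their A673 level at least 1 CPM. As flat is a limit on size, some of these genes were still called in A673. Such genes also count among the same-direction or opposite genes above, and the same holds for the reverse kind. The class held 1048 genes, 702 lower and 346 higher in TC-32 siFLI1, against 201 genes of the reverse kind. Those lower in TC-32 were well expressed in both lines, with median siNeg levels of 55.3 CPM in TC-32 and 52.7 CPM in A673, and 94.9% of them were protein-coding, against 76.6% of all genes tested. UHRF1, which brings the maintenance methyltransferase DNMT1 to newly replicated DNA, measured 252, 240.1 and 269.9 CPM in TC-32 siNeg and 26.3, 27.4 and 29.5 CPM in TC-32 siFLI1. It measured 193, 193 and 194 CPM in A673 siNeg and 193, 202 and 195 CPM in A673 siFLI1, where the siRNA groups overlapped. The TC-32 effect was -3.19 (SE 0.0509) and the A673 effect 0.025 (SE 0.0422), and they differed by -3.22 (SE 0.0659, adjusted p = 1.05e-22).

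ZNF367, a zinc finger protein linked to the cell cycle, fell from 16.9, 16.8 and 18 to 1.32, 1.48 and 1.52 CPM in TC-32. In A673 it read 18.5, 20.04 and 20.1 CPM in siNeg and 19.9, 17 and 20.3 CPM in siFLI1, again with overlap. The difference was -3.54 (SE 0.137, adjusted p = 1.96e-17). PNP, the purine salvage enzyme purine nucleoside phosphorylase, fell from 59.2, 60.9 and 59.6 to 8.48, 9.25 and 9.81 CPM in TC-32 and went from 67.4, 64.3 and 64.6 to 73, 69.5 and 73.3 CPM in A673, a difference of -2.84 (SE 0.0749, adjusted p = 1.21e-20), with 8.4% of its exonic sequence under an antisense gene. CCNE2, cyclin E2, fell from 30.2, 33.3 and 28.3 to 3.73, 2.84 and 4.46 CPM in TC-32, with an A673 effect of 0.064 (SE 0.0732). Antisense to it, INTS8 covers 37.1% of its exonic sequence.

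Of the 346 genes higher in TC-32 and flat in A673, 84.1% were protein-coding and the median level in TC-32 went from 5.29 to 17.3 CPM. NDRG1, a gene known to respond to hypoxia and differentiation, rose from 9.2, 8.48 and 7.17 to 147, 148 and 141 CPM in TC-32. In A673 it had 9.39, 8.65 and 8.39 CPM in siNeg and 10.2, 9.79 and 10.1 CPM in siFLI1. Starting levels were alike in the 2 lines, and the effects of 4.13 (SE 0.0695) in TC-32 and 0.19 (SE 0.0595) in A673 differed by 3.94 (SE 0.0926, adjusted p = 1.26e-21). ATOH8, a basic helix-loop-helix transcription factor, rose from 1.79, 2.03 and 2.31 to 65.7, 72.9 and 66.8 CPM in TC-32. Its A673 levels were 11.9, 11.6 and 12 CPM in siNeg and 13.2, 14.9 and 13.2 CPM in siFLI1, and the difference was 4.85 (SE 0.118, adjusted p = 2.5e-21). LFNG, the glycosyltransferase lunatic fringe that modifies NOTCH receptors, rose from 1.42, 1.28 and 1.51 to 25.3, 27.4 and 26.1 CPM in TC-32, against 12.8, 12.8 and 13.6 and then 14.4, 16.2 and 14.6 CPM in A673. KIAA1683 had effects of 5.19 (SE 0.159) in TC-32 and 0.16 (SE 0.0832) in A673.

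A673 had its own class of 117 higher and 84 lower genes whose TC-32 effect was under 1.2-fold. FOSL1, the AP-1 subunit FRA1, rose in A673 from 6.71, 6.29 and 4.88 to 117, 127 and 127 CPM. In TC-32 it stayed at 8.79, 9.23 and 9.06 CPM in siNeg and 9.61, 10.3 and 9.88 CPM in siFLI1, an effect of 0.14 (SE 0.106) that did not pass the threshold (adjusted p = 0.243). The lines differed by -4.23 (SE 0.133, adjusted p = 6.78e-18), and A673 went from below the TC-32 libraries to above them. CRYAB, the small heat shock protein alpha B-crystallin, rose in A673 from 2.89, 2.75 and 3.16 to 213, 232.3 and 237 CPM. In TC-32 it was already at 121, 128 and 122 CPM in siNeg and 149.5, 154 and 141 CPM in siFLI1. Its difference was -6.02 (SE 0.0782, adjusted p = 1.16e-26), and 13.6% of its exonic sequence lies under an antisense gene.

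TNFSF4, the T cell costimulator OX40 ligand, rose in A673 from 0.384, 0.355 and 0.544 to 9.1, 7.55 and 8.53 CPM, next to 6.08, 7.21 and 7.76 and 7.65, 7.31 and 7.96 CPM in the siNeg and siFLI1 libraries of TC-32. MARCH4, a membrane-bound ubiquitin ligase, rose in A673 from 7.95, 7.88 and 7.29 to 69.4, 71.9 and 73.4 CPM, next to 14.4, 15.7 and 15.6 and 15.3, 16.7 and 17.3 CPM in TC-32. Both genes had overlapping siRNA groups in TC-32, with effects of 0.12 (SE 0.119) and 0.11 (SE 0.0693). Among those lower in A673, MAP2K6, a kinase that activates p38, fell from 15.3, 15.8 and 16.2 to 2.25, 2.08 and 2.54 CPM, while TC-32 held 6.29, 6.64 and 4.82 CPM in siNeg and 5.24, 4.7 and 5.09 CPM in siFLI1. LINGO1, a neuronal receptor component that limits axon growth, fell from 59.97, 59.6 and 63.1 to 15.6, 19 and 18.7 CPM in A673 and had 49.9, 45.8 and 53.2 and 45.2, 52.8 and 51.1 CPM in TC-32. The differences were 2.53 (SE 0.147, adjusted p = 6.76e-14) and 1.78 (SE 0.1004, adjusted p = 6.64e-13). IGSF10 (difference 2.48, with 10.0% of its exonic sequence under an antisense gene) and ALDH1L1, a folate enzyme (difference 1.54), fell in A673 in the same way.

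**Figure D3:**
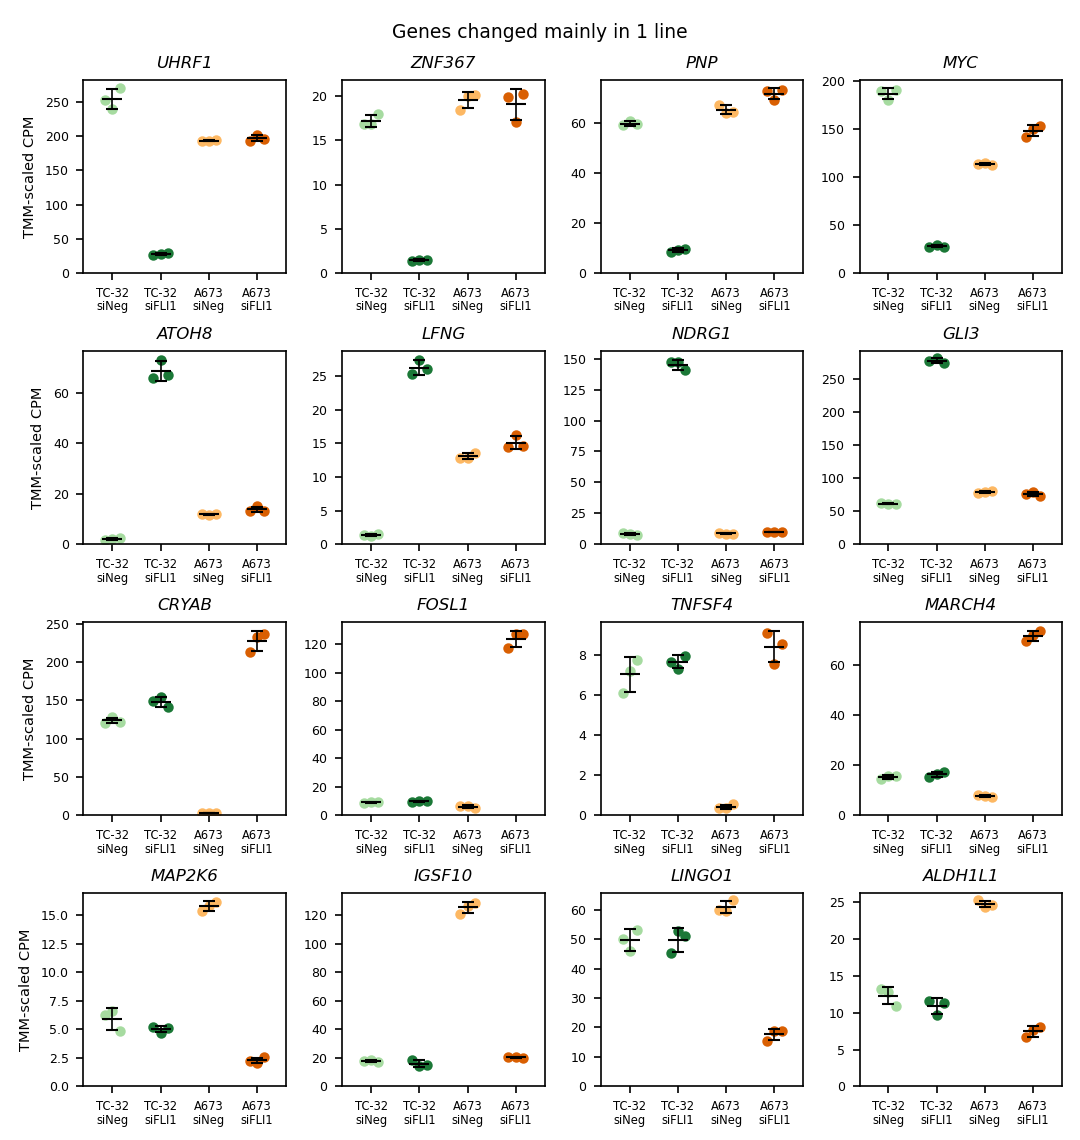
TMM-scaled CPM of genes that changed mainly in TC-32 (upper 2 rows) or mainly in A673 (lower 2 rows), with 1 point per library and the mean with SD over 3 libraries in black; MYC and GLI3 come from the gene lists. In the first row the TC-32 siFLI1 libraries stand alone at the bottom, and in the second they stand alone at the top.

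Most one-line genes were called in TC-71 in the direction of the responding line. Of 691 genes lower in TC-32, flat in A673 and tested in TC-71, 590 were lower there too and 21 were higher. Only 53 were at least 2-fold lower in TC-71, where the class median was -0.50. Of 323 genes higher in TC-32 and flat in A673, 243 were higher in TC-71, 90 of them at least 2-fold, and 36 lower. The A673 classes gave 74 higher and 11 lower of 106, and 39 lower and 11 higher of 74. Of these, 43 and 13 moved at least 2-fold in the A673 direction. Among all genes tested in both fits, 37.7% were higher and 35.7% lower in TC-71. In TC-71, the log2 fold change was -1.72 for UHRF1, 3.53 for LFNG, 2.55 for FOSL1 and -1.79 for MAP2K6. IGSF10, at -0.17, did not pass the threshold (adjusted p = 0.236).

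Another set of genes changed at least 2-fold in 1 line and had under 0.1 CPM in both groups of the other. There were 933 of these in TC-32 (792 up, 141 down) and 382 in A673 (170 up, 212 down), and low counts in the other line limit what can be read there. Of the 933, 215 were also called in A673, 191 of them in the same direction, and the difference was called for 336. Of the 382, 36 were also called in TC-32, 30 of them in the same direction, and the difference was called for 61. These genes are therefore not counted among the one-line genes. POU1F1, a pituitary transcription factor, held 3175, 3383 and 3430 counts in A673 siNeg and 140, 122 and 154 in siFLI1, and 0 in all TC-32 libraries. DGKK, a diacylglycerol kinase, held 1128, 1171 and 1230 and then 41, 41 and 32 counts in A673 and 0 in TC-32. NEUROD6, a neuronal transcription factor, fell in TC-32 from 197, 242 and 195 to 5, 2 and 7 counts and also fell in A673, from 10, 13 and 3 to 0, 0 and 0 counts, and the difference was not called (adjusted p = 0.471). SYT8, a synaptotagmin, was at 0 in TC-32 siNeg and at 191, 311 and 236 counts in siFLI1, at least 63.6-fold higher against a floor of 3 counts per library, and it also rose in A673, from 0, 0 and 0 to 1, 12 and 7 counts. PSG1, which rose in A673, KRTAP2-3, which rose in both lines, and PRAMEF1, which fell in both, belong to families of near-identical copies. UBD, which rose in TC-32, overlaps another gene over most of its exons, so these 4 are uncertain.

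The lists of proliferation genes fell in both lines and fell further in TC-32 without exception. All 36 DNA replication genes were lower in each line, and all 36 effects differed, each larger in TC-32. The median effect of the list, on the log2 scale, was -2.96 in TC-32 and -0.80 in A673, against medians over all genes of 0.053 and 0.019. The members lay between -4.25 and -1.63 in TC-32 and between -1.42 and -0.37 in A673, so the ranges did not overlap. CDC6, which loads the replicative helicase, measured 111, 113 and 112 CPM in TC-32 siNeg and 9.84, 7.4 and 9.28 CPM in TC-32 siFLI1. The A673 libraries measured 84.4, 83 and 82.4 CPM in A673 siNeg and 66.9, 62.8 and 64 CPM in A673 siFLI1, and the difference was -3.31 (SE 0.0842, adjusted p = 5.86e-21). MCM10 (-3.28), CDC45 (-3.04) and DTL (-3.01), which act in origin firing and in replication-coupled protein turnover, had the next largest differences.

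Mitotic genes gave the same picture, with all 34 lower in each line and all 34 differing by at least 2-fold. The median was -3.12 in TC-32 and -1.24 in A673. MAD2L1, a spindle checkpoint protein, fell from 64.9, 61 and 58.2 to 5.05, 6.41 and 7.2 CPM in TC-32 and from 115, 118 and 117 to 72.9, 63 and 63.1 CPM in A673. UBE2C, AURKB and KIF2C, which drive mitotic protein turnover, chromosome segregation and microtubule depolymerization, differed by -2.32, -2.29 and -2.20. TC-71 lay between the lines, with medians of -1.89 for replication and -1.80 for mitosis. FLI1 transcript was left higher in TC-32, the line with the larger fall of these genes, and the part of this in the result was not tested.

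Ribosome biogenesis genes responded in TC-32 and, taken as a list, hardly in A673. All 26 members of the list of ribosome biogenesis and MYC-type targets were lower in TC-32, with a median of -1.67. In A673 the median was 0.010, with 9 higher and 5 lower, and scaling to library size alone changed that split to 4 higher and 12 lower. All 26 effects differed, 25 of them lower in TC-32, and 19 fell into the class that is at least 2-fold lower in TC-32 and under 1.2-fold in A673. The exception in direction was UBTF, an RNA polymerase I factor, at -0.58 in TC-32 and -0.91 in A673. NOLC1, a nucleolar chaperone, measured 334, 342 and 346 CPM in TC-32 siNeg and 98.6, 92.3 and 87.3 CPM in TC-32 siFLI1. In A673 it measured 343, 348 and 344 CPM in siNeg and 402, 401 and 417 CPM in siFLI1, and the difference was -2.11 (SE 0.0559, adjusted p = 1.25e-20).

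RRP9 and GAR1, components of small nucleolar ribonucleoproteins, had effects of -2.10 (SE 0.0798) in TC-32 and 0.17 (SE 0.0628) in A673 and of -1.95 (SE 0.0802) in TC-32 and 0.053 (SE 0.0509) in A673, in that order. NOP16, a nucleolar protein with 18.6% of its exon bases under an opposite gene, had -1.99 (SE 0.0637) and 0.44 (SE 0.0504). In TC-71, 25 of 26 were lower with a median of -0.52. MYC, the transcription factor known to drive these genes, fell in TC-32 from 189, 180.02 and 191 to 27.6, 29.5 and 27.2 CPM. In A673 it rose from 114, 114 and 113 to 142, 150.1 and 153 CPM. The groups did not overlap in either line, the effects of -2.73 (SE 0.0481) in TC-32 and 0.38 (SE 0.0405) in A673 differed by -3.12 (SE 0.0628, adjusted p = 9.92e-23), and TC-71 gave -0.73. Cytosolic ribosomal proteins moved less: all 34 were lower in TC-32 with a median of -0.34, while A673 had 9 higher and 13 lower, or 0 and 22 by library size alone.

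Promoter windows from RefSeq (GRCh38.p14), 250 bases before to 50 after the gene start, were found for 11610 of the 19755 genes and searched on both strands. The ETS site CCGGAAGT stood in 12.62% of the windows of genes lower in TC-32 and flat in A673 (65 of 515), against 7.78% of all windows. That class had a median TC-32 siNeg level of 55.3 CPM, against 8.77 CPM over all genes tested. It was also more often protein-coding (94.9% against 76.6%), and the part of either in this share was not tested. The AP-1 site TGANTCA stood in 10.0% of those higher in A673 and flat in TC-32 (8 of 80) and in 11.11% of those lower in A673 (5 of 45), against 4.95% of all. The tandem ETS core GGAAGGAA (3.34% of all windows) and the TEAD site GGAATG (11.11%) stood in 2.72% and 9.32% of the first class. The windows of the leading opposite genes held no ETS, tandem ETS or AP-1 letters, and ARHGAP20 had no window. The 100 bases before the start are shown for GAR1, POLA1 and RFC4, members of the ribosome biogenesis and replication lists that hold the ETS site there, 5′ to 3′ on the gene's strand with the site in capitals, either as written or as its reverse complement. The ETS site stood in 1 of 21 ribosome biogenesis windows (4.76%) and 3 of 32 replication windows (9.38%), shares near that of all windows, so these examples are not typical of their lists. LINGO1 is added as a named one-line gene with an AP-1 site, which is in capitals there. No individual window was examined for the named one-line genes KIAA1683, NDRG1, CCNE2, CRYAB, FOSL1 and MARCH4.
GAR1 (chr4:109815410-109815509, plus strand): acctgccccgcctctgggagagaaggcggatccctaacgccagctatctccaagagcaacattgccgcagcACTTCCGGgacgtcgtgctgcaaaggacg
POLA1 (chrX:24693818-24693917, plus strand): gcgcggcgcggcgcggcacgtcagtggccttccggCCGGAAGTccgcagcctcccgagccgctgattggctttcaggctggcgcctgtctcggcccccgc
RFC4 (chr3:186806483-186806582, minus strand): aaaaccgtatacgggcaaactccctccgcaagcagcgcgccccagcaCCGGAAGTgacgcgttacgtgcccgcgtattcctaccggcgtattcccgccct
LINGO1 (chr15:77820901-77821000, minus strand): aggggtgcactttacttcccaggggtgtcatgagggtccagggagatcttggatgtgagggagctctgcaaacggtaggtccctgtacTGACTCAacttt

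The site begins 29 bases before the start in GAR1, 65 in POLA1 and 53 in RFC4, and the AP-1 letters begin 12 bases before that of LINGO1. POLA1, the catalytic subunit of DNA polymerase alpha, and RFC4, a clamp loader subunit, fell in both lines, POLA1 by -2.68 log2 units in TC-32 and -0.91 in A673, and RFC4 by -2.56 and -0.78. GAR1 fell in TC-32 and LINGO1 in A673, by the values given above. A match of letters is a description and shows no binding.

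**Figure D4:**
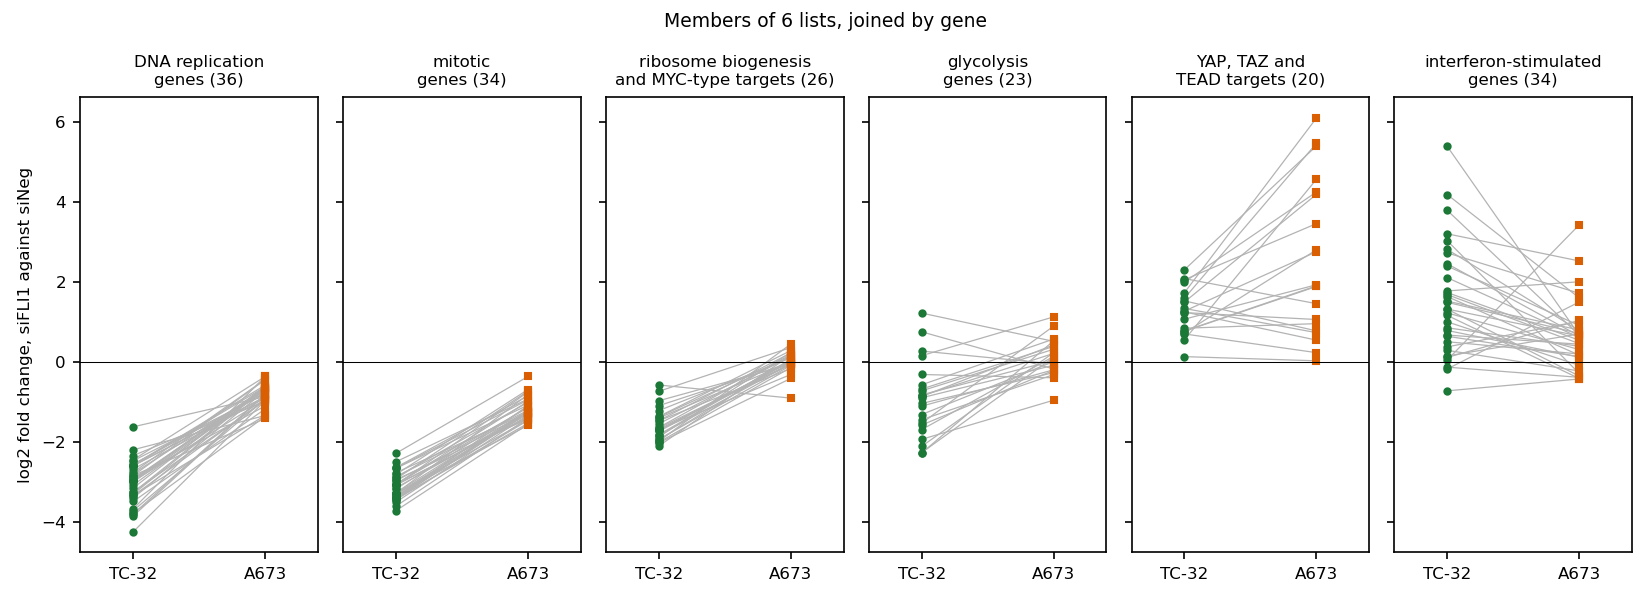
Log2 fold change of siFLI1 against siNeg for the tested members of 6 lists, TC-32 at left and A673 at right of each panel, with a line joining the 2 values of a gene. The replication and mitotic members all lie below 0 in both lines and lower in TC-32, the ribosome biogenesis members gather around 0 in A673, and most YAP, TAZ and TEAD targets lie above 0 in both lines.

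Genes of glycolysis fell in TC-32 and were split in A673. Of 23, 19 were lower in TC-32 with a median of -0.90, while A673 had 12 higher and 7 lower, or 9 and 11 by library size alone. Of these genes, 22 differed and 11 were opposite, against 62.5% and 12.6% of all genes. Of the 11, 10 were higher in A673. HK2, the inducible hexokinase, measured 54.8, 50.9 and 55.7 CPM in TC-32 siNeg and 12.2, 10.5 and 10.6 CPM in TC-32 siFLI1. It measured 57.7, 58.1 and 57.7 CPM in A673 siNeg and 81.7, 82.7 and 85.2 CPM in A673 siFLI1, with a difference of -2.81 (SE 0.077, adjusted p = 2.32e-20). SLC2A3, a glucose transporter, fell from 106, 105 and 100.05 to 37.2, 35.5 and 34.4 CPM in TC-32 and rose from 56.9, 56.9 and 54.2 to 108, 101 and 103 CPM in A673. PFKP, a phosphofructokinase, had -2.12 (SE 0.0481) and 0.23 (SE 0.0429), and LDHA, lactate dehydrogenase, had -2.27 (SE 0.0409) and 0.12 (SE 0.0383), the last value being close to the shift between scalings: by library size alone the A673 median over all genes moved from 0.019 to -0.094. The media of the 2 lines differed, and the part of this in the result was not tested.

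Lipid and respiratory genes had lower medians in TC-32 than in A673. Over all genes, 35.6% were lower in TC-32, 30.9% were lower in A673 and 34.8% were lower in TC-32 by the difference. Of 17 genes of fatty acid synthesis and desaturation, 14 were lower in TC-32, while A673 had 8 higher and 7 lower (6 and 9 by library size alone), with medians of -1.01 and -0.00062, and 15 were lower in TC-32 by the difference. SCD, the stearoyl-CoA desaturase, fell from 1059.9, 1055 and 1028 to 217, 209 and 202 CPM in TC-32 and from 1809, 1829.8 and 1890.5 to 1638, 1568 and 1601 CPM in A673. ACSL1, an acyl-CoA synthetase, fell in TC-32 (-0.76, SE 0.0616) and rose in A673 (1.47, SE 0.0644), and FADS1, a desaturase, fell in both (-2.48 and -1.12). Cholesterol synthesis genes had medians of -0.65 and -0.13, with 18 of 25 lower in TC-32 and 13 in A673, or 17 and 18 by library size alone. INSIG1, a brake on SREBP processing, fell in TC-32 (-0.90, SE 0.0562) and rose in A673 (0.81, SE 0.0478). All 30 nuclear-encoded respiratory chain genes were lower in TC-32 and 22 in A673, with medians of -0.79 and -0.18.

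The p53 target list moved in both directions in both lines. Of 30 genes, 18 were higher and 10 lower in TC-32, against 13 and 11 in A673 (9 and 13 by library size alone), and 24 differed, 14 of them higher and 10 lower in TC-32. Of all genes, 38.2% were higher and 35.6% lower in TC-32, 34.6% and 30.9% in A673, and 62.5% differed. CDKN1A, the CDK inhibitor p21, measured 33.8, 34.7 and 36.6 CPM in TC-32 siNeg and 306, 324 and 304 CPM in TC-32 siFLI1. It measured 19.7, 18.7 and 19.1 CPM in A673 siNeg and 39.8, 40.3 and 41.6 CPM in A673 siFLI1, a rise in both lines and a difference of 2.07 (SE 0.0637, adjusted p = 2.1e-19). GDF15, a secreted stress cytokine, rose from 0.375, 0.3003 and 0.0419 to 10.3, 13.5 and 12.2 CPM in TC-32 and fell from 2.86, 2.67 and 2.79 to 2.25, 2.11 and 2.09 CPM in A673, a difference of 6.0 (SE 0.272, adjusted p = 4.54e-16). Other members went the other way: PLK2, a polo-like kinase, rose from 8.41, 7.62 and 8.18 to 43.5, 40.2 and 42.1 CPM in TC-32 and from 0.817, 0.891 and 0.875 to 109, 101 and 106 CPM in A673. GADD45A, a stress-induced growth regulator, fell slightly in TC-32 (-0.26, SE 0.0561) and rose in A673 (2.13, SE 0.0539).

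Of 23 G1 regulators tested, 19 differed, with 14 effects lower in TC-32 and 5 higher. Over all genes, 34.8% were lower and 27.7% higher. Of the G1 regulators, 6 were opposite, 2 of them higher in TC-32 and 4 higher in A673. CCND1, cyclin D1, fell from 1214, 1167 and 1239 to 62.2, 56.1 and 59.5 CPM in TC-32 and from 1609, 1609 and 1662 to 487, 485 and 479 CPM in A673. Cyclin E1, CCNE1, fell from 18.9, 17.8 and 16.8 to 5.54, 4.73 and 4.92 CPM in TC-32 and rose from 11.1, 10.9 and 10.1 to 18.4, 18.4 and 19.3 CPM in A673, a difference of -2.63 (SE 0.106, adjusted p = 4.86e-17). E2F1, the transcription factor of S phase genes, fell in both (-3.81 and -1.10). In the BCL2 family, 13 of 16 genes differed, 5 higher and 8 lower in TC-32, and 4 were opposite, 2 in each direction. Of all genes, 62.5% differed and 12.6% were opposite. By library size alone 6 of 12 that differed were lower in TC-32 and 3 were opposite, and by RLE size factors 7 of 12 were lower and 2 were opposite. BBC3 (PUMA) rose in TC-32 (1.04) and fell in A673 (-0.39), as did BMF (1.05 and -0.62), both of which promote apoptosis. BID and PMAIP1, which also do and were named after their values were seen, went the other way, with -0.12 and -0.19 in TC-32 and 0.37 and 0.13 in A673.

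Targets of YAP, TAZ and TEAD, which respond to cell shape and contact, rose in both lines, most of them further in A673. Of 20 tested, 20 rose in TC-32 and 19 in A673, with medians of 1.26 and 1.91. Of the 18 that differed, 12 rose more in A673, while 62.5% of all genes differed and 34.8% had the lower effect in TC-32. AXL, a receptor tyrosine kinase, measured 41.4, 45.4 and 46.8 CPM in TC-32 siNeg and 146, 148 and 149.7 CPM in TC-32 siFLI1. In A673 it measured 3.63, 3.08 and 3.66 CPM in siNeg and 230.5, 242 and 238 CPM in siFLI1, so that the siNeg order of the lines was reversed by siFLI1, with a difference of -4.37 (SE 0.0786, adjusted p = 1.28e-23). ANKRD1, a nuclear ankyrin repeat protein, rose from 22.4, 23.1 and 20.5 to 71.3, 65 and 63 CPM in TC-32 and from 9.23, 9.21 and 9.32 to 422, 389 and 417 CPM in A673. F3, tissue factor, rose from 6.12, 8.3 and 7.21 to 11, 11 and 9.88 CPM in TC-32 and from 10.9, 11.4 and 11.5 to 273, 249.9 and 277 CPM in A673. TC-71 had a median of 2.85 for this list, above both.

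Among 27 ERK feedback and immediate early genes, 24 differed, 11 higher and 13 lower in TC-32, and the median difference of -0.12 changed sign to 0.074 by library size alone. The members with the largest differences, FOSL1 and MYC (above), LIF and HBEGF, all had the higher effect in A673. HBEGF, an EGF receptor ligand, rose from 2.79, 2.4 and 1.85 to 5.05, 4.06 and 4.1 CPM in TC-32 and from 18.9, 18.4 and 20.5 to 301, 290.03 and 311 CPM in A673, a difference of -3.07 (SE 0.171, adjusted p = 2.71e-14). LIF, a cytokine of the interleukin 6 family, rose from 0.708, 0.413 and 0.964 to 10.4, 10.9 and 11.2 CPM in TC-32 and from 0.342, 0.478 and 0.34 to 65.1, 75.3 and 75.5 CPM in A673. Of the 31 receptor tyrosine kinases, 26 differed (83.9%, against 62.5% of all genes), 13 in each direction, where 27.7% of all genes were higher and 34.8% lower in TC-32. KIT, the stem cell factor receptor, fell from 107, 106 and 103 to 61.2, 60.05 and 59.9 CPM in TC-32 and rose from 21.2, 21.4 and 21.7 to 84.6, 80.7 and 83.9 CPM in A673.

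Immune signalling genes rose more in TC-32. Of 34 interferon-stimulated genes, 28 were higher in TC-32 and 24 in A673, with medians of 1.32 and 0.63. Differences were called for 33, of which 27 were higher in TC-32, against 62.5% and 27.7% of all genes. IFI44L, an interferon-induced protein, rose from 0.0833, 0.0751 and 0.0839 to 3.73, 3.89 and 2.71 CPM in TC-32 and from 7.22, 7.46 and 7.76 to 12, 11.8 and 11.8 CPM in A673. Its TC-32 siNeg libraries held 2 counts each, and the ratio of 42.9 has a 95% counting interval from 19.5 to 118. RSAD2, viperin, rose by 3.79 (SE 0.272) and 0.67 (SE 0.143), and IFI44 rose in TC-32 (3.03, SE 0.268) and fell in A673 (-0.29, SE 0.0672). For both of these and IFI44L, the A673 siNeg libraries started above those of TC-32.

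Of 27 tested chemokines, cytokines and NF-kB targets, 26 rose in TC-32 and 25 in A673, with medians of 3.98 and 2.73. A difference was called for 22, of which 17 were higher in TC-32, against 62.5% and 27.7% of all genes. VCAM1, a vascular cell adhesion molecule, measured 0.291, 0.525 and 0.0839 CPM in TC-32 siNeg and 79.3, 78.3 and 67 CPM in TC-32 siFLI1. In A673 it measured 2.63, 3.17 and 3.56 CPM in siNeg and 10.1, 9.86 and 8.37 CPM in siFLI1, and it had the largest difference among members with at least 1 CPM in each line, 6.32 (SE 0.291, adjusted p = 6.57e-12). IL32, a proinflammatory cytokine, rose from 0.416, 0.188 and 0.335 to 65, 71.9 and 65.1 CPM in TC-32 and from 2.06, 1.96 and 1.96 to 23.1, 23.9 and 24.6 CPM in A673. CCL2, the monocyte chemoattractant, rose from 1.17, 1.95 and 1.13 to 111, 104 and 97.2 CPM in TC-32 and from 1.21, 1.15 and 1.27 to 14, 15.3 and 13.5 CPM in A673. Only 12 genes of the list were expressed enough to be tested in TC-71, where 6 rose and 2 fell. C3, the central complement component, which is outside the list, differed by 5.77 (SE 0.193, adjusted p = 4.9e-18) after a rise in both lines.

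Hedgehog pathway genes rose in TC-32 and had no common direction in A673. Of 16, 13 were higher in TC-32 with a median of 1.63, while A673 had 7 higher and 4 lower (7 and 7 by library size alone) with a median of -0.057. Over all genes, 38.2% were higher in TC-32, and in A673 34.6% were higher and 30.9% lower. GLI3, a transcription factor of the pathway, rose from 62.6, 60.2 and 61.6 to 278, 281 and 274 CPM in TC-32 and stayed at 78, 79.7 and 80.1 CPM in siNeg and 75.8, 78.5 and 73.4 CPM in siFLI1 of A673. GAS1, a hedgehog coreceptor, rose from 7.37, 7.66 and 8.01 to 49.8, 49.98 and 50.9 CPM in TC-32 and fell from 31.9, 35.1 and 35.1 to 27.1, 27.2 and 24.9 CPM in A673. The differences were 2.24 (SE 0.0564, adjusted p = 4.96e-21) and 3.07 (SE 0.0878, adjusted p = 4.99e-20). CDON, another coreceptor, rose in both (2.74 and 1.38), and TC-71 had a list median of 1.15. In the BMP list of 25, 19 differed and 13 of these were higher in TC-32, against 62.5% and 27.7% of all genes. The BMP response genes ID1 and ID3 rose in TC-32 (1.63 and 1.42) and read 0.031 and -0.47 in A673.

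Of 34 axon guidance genes tested, 27 differed (79.4%, against 62.5% of all genes) and 9 were opposite, 7 of them higher in TC-32, where 12.6% of all genes were opposite. NTN1, the guidance cue netrin 1, rose from 0.208, 0.263 and 0.0839 to 11.5, 14.1 and 10.8 CPM in TC-32 and fell from 19.8, 18.1 and 19.1 to 7.12, 8.09 and 7.95 CPM in A673, a difference of 7.31 (SE 0.226, adjusted p = 2.27e-19). UNC5B, a netrin receptor, rose from 19.6, 17.7 and 18.3 to 89.4, 99.8 and 90.9 CPM in TC-32 and fell from 28.6, 26.6 and 27.5 to 16.7, 19.7 and 18.2 CPM in A673. ROBO2, a SLIT receptor, did likewise (2.73 and -1.42), whereas SEMA3C, a secreted semaphorin, rose in both (5.64 and 1.78). In the neuronal list, 14 of 25 tested genes differed (56%, below the 62.5% of all genes) and 3 were opposite. Its medians were close, at -0.29 in TC-32 and -0.27 in A673. SCG2, a secretory granule protein of that list, fell in TC-32 (-1.27) and rose in A673 (1.43).

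Collagens and their enzymes rose in both lines, 28 of 29 in each, with medians of 3.29 and 2.46. A difference was called for 26, of which 18 were higher in TC-32, against 62.5% and 27.7% of all genes. The largest single differences ran both ways. COL11A1, a minor fibrillar collagen, measured 223, 229.04 and 225 CPM in TC-32 siNeg and 379, 382 and 377 CPM in TC-32 siFLI1. It measured 0.834, 1.03 and 1.002 CPM in A673 siNeg and 105, 115 and 109 CPM in A673 siFLI1, a difference of -6.09 (SE 0.077, adjusted p = 8.82e-27) with a near-silent siNeg level in A673. COL1A2, a chain of type I collagen, showed the reverse, from 0.167, 0.113 and 0.294 to 13.6, 12.4 and 14 CPM in TC-32 and from 884, 849 and 878 to 3399.7, 3774 and 3622 CPM in A673. LOX, the collagen crosslinking enzyme, rose more in A673 (6.71) than in TC-32 (3.69), and COL16A1 rose in TC-32 (2.45, SE 0.079) and read -0.014 (SE 0.0689) in A673.

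Lysosome and autophagy genes rose in both lines and more in TC-32, with 24 and 21 of 28 higher and medians of 0.97 and 0.56. Of 23 that differed, 19 were higher in TC-32, while 62.5% of all genes differed and 27.7% were higher in TC-32. CTSK, the collagenolytic cathepsin K, rose from 4.21, 4.88 and 4.74 to 15, 16 and 14.3 CPM in TC-32 and fell from 14.9, 14.5 and 15.4 to 6.76, 6.94 and 6.38 CPM in A673. TFEB, the transcription factor that controls lysosomal genes, rose in TC-32 (1.63, SE 0.169) and fell in A673 (-0.50, SE 0.153). WIPI1, an autophagy protein, rose in both (3.54 and 2.03).

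The lists of genes known to depend on the fusion moved the same way in both lines, with exceptions. Of 23 fusion-activated genes, 19 fell in TC-32 and 22 in A673, with medians of -2.23 and -1.78. XG, a surface antigen gene next to CD99, rose from 20.9, 19.9 and 20.04 to 29.4, 28.5 and 29.7 CPM in TC-32 and fell from 31.1, 31.8 and 31 to 4.11, 3.55 and 3.87 CPM in A673, a difference of 3.55 (SE 0.0868, adjusted p = 2.81e-21). IGF1, the growth factor, did likewise (1.29 and -4.68), although 82.5% of its exon bases lie under a gene on the opposite strand. Of 20 fusion-repressed genes, 18 rose in TC-32 and 19 in A673, with medians of 2.98 and 3.54. TIMP3, a metalloproteinase inhibitor, rose from 5.79, 5.33 and 4.82 to 374, 355 and 358 CPM in TC-32 and from 47.3, 46.9 and 48.4 to 119, 115 and 118 CPM in A673. IGFBP5, an IGF-binding protein of the IGF axis list, had the reverse proportion, from 2372, 2318 and 2329.8 to 12523, 13081 and 12674 CPM in TC-32 and from 11.7, 10.7 and 12.3 to 1643, 1729 and 1654 CPM in A673.

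Among ETS family genes, 22 were tested and 13 differed, a share of 59.1% that is near that of all genes. Of those with at least 1 CPM in each line, ETS1, ETS2, ETV1 and ETV5 had the largest differences. ETS2 rose from 20.5, 18.5 and 15.8 to 82.4, 85.3 and 84.6 CPM in TC-32 and fell from 22.1, 22.4 and 22.5 to 13.5, 14 and 14.1 CPM in A673, a difference of 2.89 (SE 0.0868, adjusted p = 1.3e-19). ETV1 fell in TC-32 (-1.37, SE 0.0696) and rose in A673 (0.64, SE 0.0498). ETV5 rose in TC-32 (1.83, SE 0.186) and read 0.09 (SE 0.0554) in A673, where siRNA groups overlapped.

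**Figure D5:**
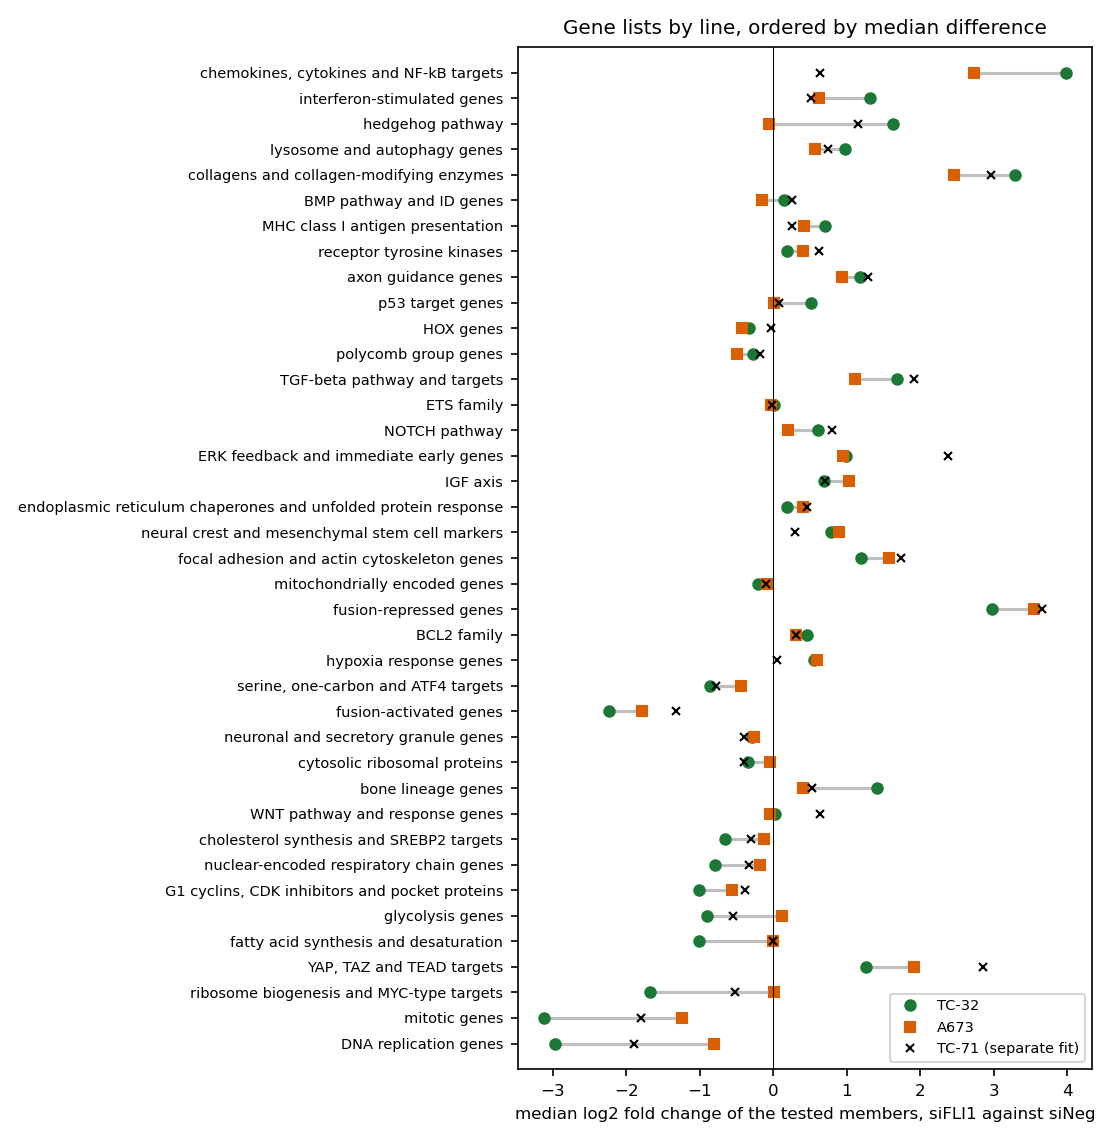
Median log2 fold change of siFLI1 against siNeg over the tested members of 39 gene lists, in TC-32 (circles), A673 (squares) and TC-71 (crosses, fitted separately), ordered by the median difference of TC-32 minus A673. The replication, mitotic and ribosome biogenesis lists stand at the bottom, and the chemokine and interferon lists stand at the top.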

How the data were processed

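RNA-seq, from libraries made with a stranded mRNA kit, of siNeg and siFLI1 cells was analysed, 3 libraries per group. The authors deposited expected counts per gene, unscaled, for the TC-32 and A673 libraries, which the tables' names attribute to RSEM. The TC-71 table of raw read counts, also deposited by the authors, is attributed to Subread. The submitters' processing notes name cutadapt 4.4, STAR 2.7.3, featureCounts, Subread 2.0.3, limma 3.38.3 and GRCh38, without their roles. Whether counting used strand is not given in the sources used here.

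Expected counts were rounded and fitted in 1 model with 4 group means by edgeR 4.0.16 in R 4.3.3 (TMM scaling, filterByExpr, robust quasi-likelihood test, two-sided, Benjamini-Hochberg over 19755 genes at 0.05). The SE is the unshrunk coefficient divided by the root of its F statistic; log2 fold changes are slightly shrunken by the prior count. TC-71 was fitted alone over 17085 genes. Counting intervals are exact and cover counting error only. Depth gives a floor of 3 counts per library. The procedure was tested on simulated data.

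Opposite genes changed at least 2-fold each way; one-line genes changed at least 2-fold in 1 line and under 1.2-fold in the other, with at least 1 CPM there; absent means under 0.1 CPM. Named genes are the 5 opposite genes per direction with the largest smaller change, the 4 (one-line), 2 (absent) or 3 (same direction) largest per class, and up to 4 list members with the largest differences; UBTF, POLA1 and RFC4 were chosen after their values were seen. Genes named from a class also needed siRNA libraries that did not overlap in each line where the gene was called. They needed a group mean of at least 5 CPM, in both lines except for the absent class. Members and lists were chosen with earlier results of these data known. Exon overlaps came from GENCODE annotation and promoter windows from RefSeq. Alternatives were other scalings, filters, tests (DESeq2 1.42.0, limma-voom 3.58.1), thresholds, thinning, a replicate block and leaving out each library. The siERG libraries and ES-5838 were not analysed here.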

Additional observations from a re-analysis of the deposited data

Results flagged for a closer look

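For 10 genes the siFLI1 effect differed between the lines by a test of the difference itself, with opposite directions in TC-32 and A673. Genes that rose in TC-32 and fell in A673 had log2 differences (TC-32 minus A673) of 10.49 for CLUL1, 8.91 for COL21A1, 4.48 for FRK, 4.43 for AKR1C2 and 3.96 for ARHGAP20. Those that fell in TC-32 and rose in A673 had -6.56 for KDR, -4.86 for GNG4, -4.48 for TMEFF2, -4.28 for MEGF10 and -3.18 for MMP15. All 3 siFLI1 libraries lay on one side of all 3 siNeg libraries in each line for these genes, which was a condition of their selection.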

How the results depend on the processing

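The 12342 genes whose effect differed became 6495 when edgeR's glmTreat required more than a 1.5-fold difference, and ranged from 11756 to 12138 when each library was left out. Leaving out libraries gave 14145 to 14378 genes changed in TC-32, 11804 to 13431 in A673, 979 to 1056 genes changed in TC-32 and flat in A673, and 187 to 205 of the reverse kind; the count of opposite genes stayed within 1.5 times 250. With a flat limit of 1.1-fold the one-line classes held 600 and 83 genes, and with 5 CPM in place of 1 CPM the A673 class held 128. Requiring 1 CPM in both lines, chosen after seeing the data, left 112 opposite genes. The difference of EWSR1 reversed to 0.12 under library size alone; the cause was not tested. The mitochondrially encoded list had 5 differing members under a filter of 10 mean counts, against 9. Of 182 named genes, MT-ND4L, MT-ND1 and UBD lost their call under an alternative, and DESeq2 or limma-voom called the difference of several genes silent in 1 line. Thinning all libraries to 24102487 counts left 10941 differing genes, 13524 changed in TC-32 and 10718 changed in A673. It left 1008 and 184 one-line genes. Opposite genes then numbered 195, and 166 of them were among the 250. Same-numbered libraries did not deviate together (correlations of deviations from -0.42 to 0.051). With 3 libraries per group and no shared origin in the labels, this cannot show whether the numbers pair the samples. The replicate block gave 11899 differing genes, 14243 in TC-32, 12358 in A673, and 1050 and 194 one-line genes. One-line genes called in TC-71 with the responding line's direction numbered 946, with 918 to 938 when a TC-71 library was left out and 941 with the replicate block; these TC-71 alternatives were chosen after seeing the data. Lower depth in TC-32 limits weakly expressed genes there.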

Other observations

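Further lists are given here with the share of members that differed, which was 62.5% over all genes. The share was 70.6% for focal adhesion, 66.7% for TGF-beta, 79.2% for endoplasmic reticulum and 75% for serine and ATF4 genes. It was 85.7% for polycomb, 88.9% for MHC class I, 68% for HOX and 77.3% for NOTCH genes. The shares of the TGF-beta and HOX lists lay near that of all genes. Of 34 focal adhesion and actin genes, 30 rose in TC-32 and 33 in A673, with medians of 1.19 and 1.57, and 24 differed. TGF-beta pathway and target genes rose in both lines, 21 and 18 of 24, with medians of 1.68 and 1.12, and 16 differed. Endoplasmic reticulum chaperones and unfolded protein response genes were higher for 14 of 24 in TC-32 and 20 in A673, but only 1 differed by 2-fold. Serine, one-carbon and ATF4 target genes fell, 19 of 28 in TC-32 and 21 in A673, with medians of -0.86 and -0.44. Of 21 polycomb group genes, 12 fell in TC-32 and 16 in A673, with medians of -0.27 and -0.49. MHC class I presentation genes rose in both lines, 15 and 14 of 18, with medians of 0.71 and 0.41. Among 25 tested HOX genes, 16 fell in TC-32 and 15 in A673, and 5 were opposite. The NOTCH list had a median difference of -0.047, which became 0.14 by library size alone.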
